A study of Mus musculus with 33 samples.

Results

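Prostaglandins are local lipid signals made from arachidonic acid, and 10 genes for their synthesis, their breakdown and their receptors were followed through hair growth in mouse back skin. The genes were chosen by symbol: Ptgs1 and Ptgs2 (the cyclooxygenases), Ptges, Ptgds and Ptgis (the synthases of prostaglandin E2, prostaglandin D2 and prostacyclin), Hpgd (the dehydrogenase that inactivates prostaglandins), Ptger2, Ptger3 and Ptger4 (the EP2, EP3 and EP4 receptors of prostaglandin E2) and Ptgfr (the receptor of prostaglandin F2 alpha). Of these 10 genes 9 had a probe set with their symbol alone, among 18193 genes with such a probe set, and Ptgs1 was not analysed here. The 9 genes had 20 probe sets, and the brightest of each gene stood for it. 8 of the 9 passed the filter for testing, for which 3 or more of the 33 arrays had to show a signal over their own median. Ptgs2 passed it only through depilated skin, where 6 arrays lay above their median against 0 of 23 in the natural cycle, and Ptger2 did not pass.

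Each array held RNA from the whole dorsal skin of a single C57BL/6 mouse, wild type as far as the labels say. In the natural second hair cycle mice were taken at postnatal day (P) 23 and 25 in early anagen (4 arrays), P27 in mid anagen (3), P29 in late anagen (3), P37 and P39 in early catagen (6), P41 in mid catagen (3) and P44 in telogen (3), of both sexes, and a single array covered P34. Anagen is the growth of the follicle, catagen its regression and telogen its rest. In the depilation cycle the resting coat of older mice, labelled as P50 or older and all female, was pulled out with a wax and rosin mixture, and skin was taken 3, 5, 8, 12 and 17 days later (D3 to D17, 2 arrays each). D3 was classed as early anagen, D5 as mid anagen, D8 and D12 as late anagen and D17 as early catagen. Undepilated skin of that age was not analysed here, so depilation cannot be told apart from age, and the sex balance differs as well.

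In skin, cyclooxygenase activity supplies all prostaglandins, and Ptgs2 is the inducible enzyme of the pair, known for its response to injury and inflammation. Prostaglandin D2 is known to hold back hair growth, while prostaglandin E2 and prostaglandin F2 alpha are known to favour it, and drugs that act on the Ptgfr receptor lengthen eyelashes. EP2 and EP4 raise cyclic AMP when bound, and EP3 mostly lowers it.

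Signals are linear array intensities, with the SD after a mean signal and the standard error (SE) after a log2 difference. Signals under 34.6 were set to that value before the log2 step, and a difference is called a bound where an array of the lower group lay under it. A gene was called changed at an adjusted p under 0.05 in the linear models of limma, adjusted over 26988 probe sets. Replicate arrays correlated at 0.943 to 0.980 over these probe sets. Hair matrix, shaft and inner root sheath markers summed to 884 to 2780 in telogen and 123000 to 131000 at P29. Of these 6 genes, Krt25 and Krt71 are inner root sheath keratins. The sums were 550 and 427 at D3, 112000 and 102000 at D12 and 17800 to 46100 in natural early anagen. The D3 arrays thus lay below telogen in this sum, whereas markers of dividing cells summed to 8510 to 10900 at D3, 1380 to 1830 in telogen and 13900 to 18600 in natural early anagen. The second D5 array stood apart in wound epidermis markers (Krt6b, S100a8 and others), which summed to 75700 against 15400 on its partner. This list was also high in undepilated skin, at 30500 to 35200 at P29, 39000 to 48700 in early catagen and 34400 to 49300 in mid catagen.

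By the F test over the 6 natural phases 7 of the 8 tested genes changed, and Ptgs2 did not (adjusted p = 0.0589), while 72.6% of all tested probe sets changed. Across the 5 time points after depilation 3 of the 8 did (Ptgds, Ptger3 and Ptger4), against 10.2% of all probe sets. With an array left out 0 to 2 did, since Ptgds lost the call in 4 of 10 such fits and Ptger3 and Ptger4 in 8 of 10 each, while the joint fit of all arrays called 6. Most of the 8 tested genes moved in 2 broad ways through the natural cycle. Ptgds and Ptger4 were high from mid anagen to early catagen and low in mid catagen and telogen. Ptgis, Hpgd, Ptger3 and Ptgfr were low in late anagen and early catagen. Ptges took neither course. It had its highest natural mean in telogen (499) and means of 272 at P27, 254 at P29, 251 at P37, 296 at P39 and 272 at P41. Since whole skin was measured, fewer cells that make a transcript and less transcript per cell cannot be told apart in any of these values.

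**Figure D1:**
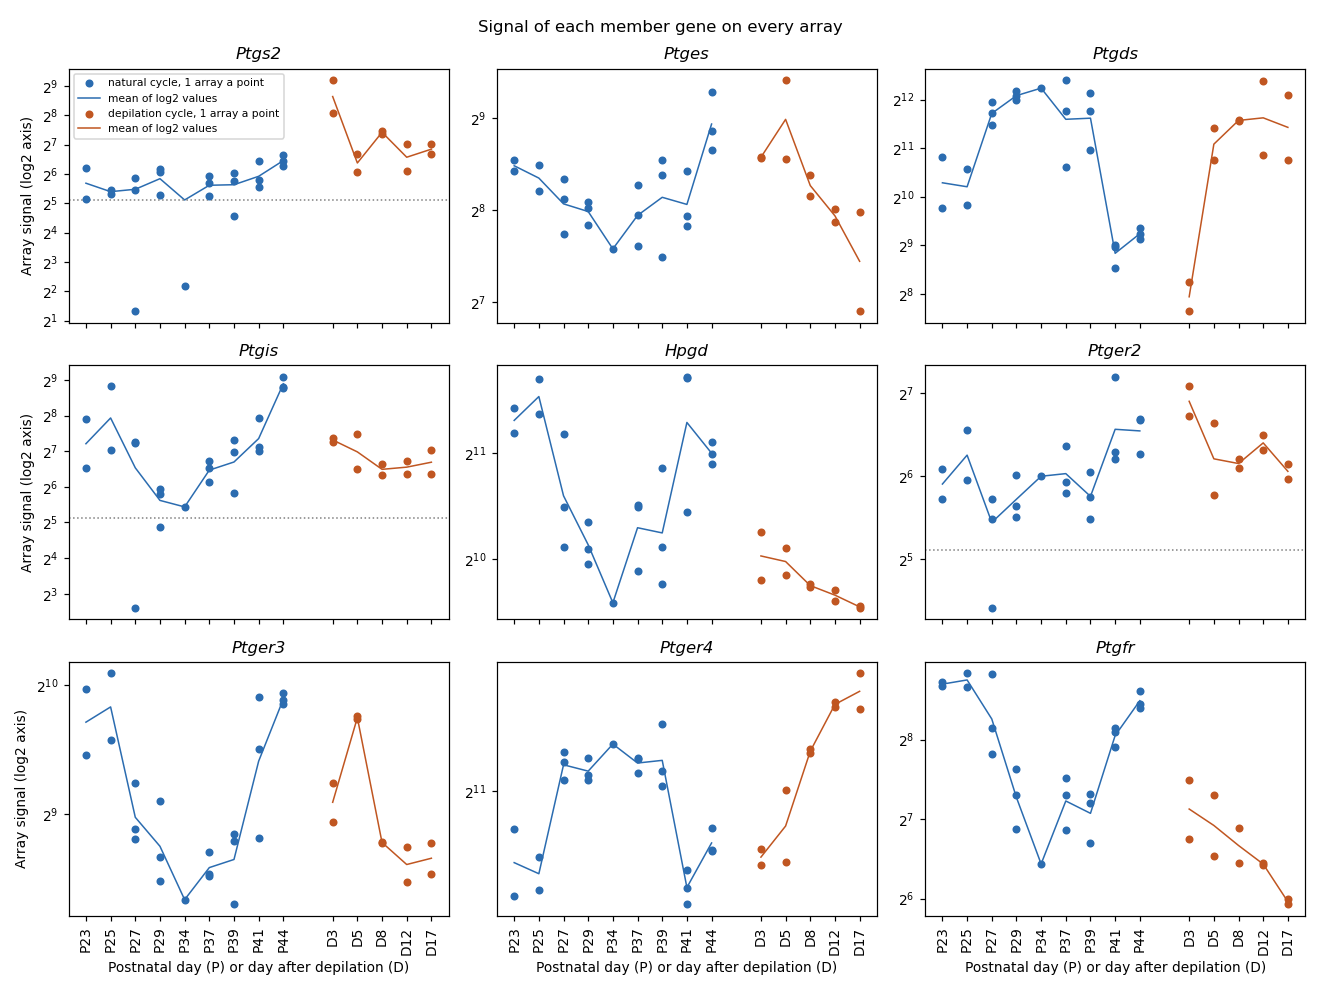
Signal of the 9 genes on each of the 33 arrays (points, log2 axis) by postnatal day or day after depilation, with lines through the means of the log2 values and a dotted line at the floor of 34.6 where an array lay under it. Ptgs2 reached 588.9 and 270.7 at D3, above all natural arrays, and Ptgds ran from 200.5 at D3 to 5400.5 at P37.

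Ptgs2, the inducible cyclooxygenase, was low in the natural cycle and stood highest 3 days after depilation. Its window around the RefSeq start of transcription (GRCm38.p6, chr1:150099781-150100060, plus strand, 250 bases before and 30 after the start) is shown because this gene stood above every natural array at D3, with matches to an E-box (CACGTG) and to the core of the cyclic AMP response element (TGACG, here called the CRE core) in capitals.
Ptgs2: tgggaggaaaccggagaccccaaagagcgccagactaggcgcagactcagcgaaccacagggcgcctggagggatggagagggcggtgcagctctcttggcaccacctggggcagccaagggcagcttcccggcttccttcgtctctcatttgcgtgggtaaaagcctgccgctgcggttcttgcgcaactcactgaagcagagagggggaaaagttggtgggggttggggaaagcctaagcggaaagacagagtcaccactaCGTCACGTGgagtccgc
The E-box match lay 17 to 22 bases from the start and the CRE core match, on the other strand, 14 to 18, so they share 2 letters. Of 32851 RefSeq promoter windows of this length 6.79% hold the E-box letters and 19.9% the CRE core on either strand. The first 94 bases of the window belong to the lncRNA Ptgs2os.

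The 23 natural arrays ran from 2.5 to 101.4 for Ptgs2, with telogen at 76.7, 87.2 and 101.4 and early anagen at 35.5, 74.5, 44.1 and 40.2. The telogen arrays all lay above the early anagen arrays, and early anagen was lower by the test (log2 difference -0.92 ± 0.26, adjusted p = 0.038), a call lost without any array of the groups but the second P23 array (adjusted p 0.0612 to 0.12) and with no filter (adjusted p = 0.094). D3 gave 588.9 and 270.7, both above every natural array. D3 was higher than telogen by 2.18 ± 0.39 on the log2 scale (adjusted p = 0.000244) and higher than natural early anagen by 3.10 ± 0.37 (adjusted p = 1.29e-06). Ptgs2 entered these tests through the depilated arrays in which it was high, so the comparisons between the cycles are also given with no filter, where the adjusted p values were 0.000608 and 4.8e-06. Both calls held with each array of their groups left out in turn. A weaker second probe set of the gene, which was not tested, gave 151.5 and 85.7 at D3 and 8.0 to 77.2 on the later depilated arrays.

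By D5 Ptgs2 was at 101.7 and 67.7, lower than at D3 (-2.27 ± 0.43, adjusted p = 0.0423), and this call was lost without the first D3 array or either D5 array (adjusted p 0.0622 to 0.143) and with no filter (adjusted p = 0.0944). D8 gave 164.5 and 178.8, D12 69.0 and 131.0 and D17 129.3 and 102.4, so 5 of these 6 arrays lay above the natural maximum of 101.4. D8 and D12 were higher than P29 (39.0, 66.5 and 72.3) by 1.16 ± 0.33 (adjusted p = 0.0113), with the lower D12 array inside the P29 range, and the call was lost without the first P29 array (adjusted p = 0.0825) or the second D12 array (adjusted p = 0.0669). With no filter the adjusted p was 0.0218, with the floor at the 10th percentile 0.0863, and with the floor at the median the difference was 0.23 (adjusted p = 0.254). D17 was higher than early catagen (23.6 to 65.8, median 52.4) by at least 1.22 (adjusted p = 0.0198), a call lost without either D17 array (adjusted p 0.0809 to 0.211) and with the floor at the 10th percentile (adjusted p = 0.0965) or the median (adjusted p = 1), and with no filter the adjusted p was 0.0367. From early to late anagen Ptgs2 went from 430 ± 225 (n = 2) to 136 ± 48.8 (n = 4) after depilation and from 48.6 ± 17.6 (n = 4) to 59.3 ± 17.8 (n = 3) in the natural cycle, and the difference between these changes passed the test (-1.94 ± 0.49, adjusted p = 0.00955). Without the first D3 array it was -1.38 (adjusted p = 0.122), with the floor at the 10th percentile the adjusted p was 0.07, and with no filter it was 0.0174.

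Other marker lists were set beside Ptgs2 and did not all follow it. All 8 immediate early genes (Fos, Egr1 and others), which respond within minutes to stimulation, were higher at D3 than in telogen. Of all probe sets 13.4% were called higher there. The immediate early genes summed to 27100 and 54700 at D3, 9870 to 11500 in telogen and 28000 to 34900 from D8 to D17. Within the D3 pair, and within the D5 pair (10300 and 20600), the array with more Ptgs2 had the lower sum. Of 8 wound epidermis genes tested 2 were higher at D3 than in telogen (Krt16 and Sprr1b), with overlapping sums of 15500 and 24700 against 12400 to 17600. This list was highest on the second D5 array (75700), where Ptgs2 was low, and stood at 39000 to 48700 in early catagen. Of the neutrophil markers 4 of 6 had a probe set and 2 were tested. Il1b, which other cells also make, was higher at D3 (1.23 ± 0.42, adjusted p = 0.0286), and Csf3r gave -0.39 ± 0.51. The sums were 850 and 405 at D3 and 401 to 458 in telogen, so the first D3 array was high in both this sum and Ptgs2. The part of these markers in the Ptgs2 result was not tested.

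Ptges, the inducible synthase of prostaglandin E2, changed across the natural cycle (F test, adjusted p = 0.00995), but no single natural step passed the test. Without the second telogen array, at 625.3 its highest, the F test gave adjusted p = 0.0692. Telogen arrays stood at 404, 625.3 and 466.5, above all 20 other natural arrays (180.5 to 373.6). Telogen against mid catagen gave 0.87 ± 0.23 (adjusted p = 0.0814) and early anagen against telogen -0.52 ± 0.17 (adjusted p = 0.0623). D3 gave 382.7 and 380.4, D5 377.8 and 682.6, D8 334.1 and 284.6, D12 233.8 and 257.7, and D17 119.8 and 253.6. D5 was higher than mid anagen at P27 (279.3, 214.9 and 323.2) by 0.92 ± 0.32 (adjusted p = 0.0398). Without the second D5 array, the array rich in wound epidermis markers, the difference was 0.49 with adjusted p = 0.399, and without the first or second P27 array the adjusted p was 0.0695 or 0.14. Another Ptges probe set differed more, with 1.36 ± 0.35 at D5 against P27 (adjusted p = 0.00715). It alone of the probe sets of this gene was called higher at D8 and D12 than at P29 (1.15 ± 0.29, adjusted p = 0.00573) and in mid catagen than in early catagen (1.33 ± 0.43, adjusted p = 0.0374). The third probe set gave 0.68 ± 0.26 in mid against early catagen (adjusted p = 0.0664).

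Ptgds, the synthase of prostaglandin D2, rose with anagen in both cycles and had the widest range of the tested genes. Telogen gave 601.0, 563.7 and 651.0, early anagen 870.2, 1792.8, 911.0 and 1529.0, P27 3379.1, 3956.4 and 2836.7 and P29 4645.0, 4317.8 and 4046.0. These 4 groups did not overlap. Early anagen was higher than telogen by 1.01 ± 0.28 (adjusted p = 0.0341) and P27 higher than early anagen by 1.47 ± 0.29 (adjusted p = 0.0155). Early catagen ran from 1574.8 to 5400.5 (median 3460), and at P41 the gene had dropped to 372.4, 498.6 and 513.8, under every array of early catagen (-2.77 ± 0.37, 6.81-fold lower, adjusted p = 0.000873). The fall to mid catagen held without any array. The early anagen rise was lost without any telogen array, the second P23 or the second P25 array (adjusted p 0.0615 to 0.0995), and the next step without the first or second P27 array (adjusted p = 0.0602 and 0.0668).

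At D3 Ptgds was at 301.4 and 200.5, the lowest of the 33 arrays. D3 lay below natural early anagen by -2.30 ± 0.45 on the log2 scale (4.94-fold lower, adjusted p = 0.00033), which held without any array, and below telogen by -1.30 ± 0.48 (adjusted p = 0.041), which was lost without any single array of either group (adjusted p 0.0645 to 0.235). D5 was at 2716.4 and 1728.9, higher than D3 by 3.14 ± 0.58 (8.82-fold, adjusted p = 0.0394), a call lost without any of the 4 arrays (adjusted p 0.0881 to 0.118). D8 gave 3008.2 and 3069.4, D12 5330.6 and 1866.0 and D17 1735.0 and 4369.8, and none of D5, of D8 and D12 or of D17 passed the test against its natural counterpart. The change from early to late anagen was 3.65 ± 0.45 after depilation and 1.83 ± 0.40 in the natural cycle, and the difference of 1.82 ± 0.61 passed the test (adjusted p = 0.0404). That call was lost in 10 of 13 fits that left out an array (adjusted p 0.0553 to 0.141). The second Ptgds probe set moved the same way in these comparisons, without the call at early anagen against telogen (0.59 ± 0.21), at D5 against D3 (2.84 ± 0.76) and for the difference of the changes (1.51 ± 0.74), and with a call at telogen against mid catagen (0.76 ± 0.13, adjusted p = 0.0245). Hair matrix, shaft and inner root sheath markers were also lower at D3 (6 of 6 lower than in natural early anagen, against 26.1% of all probe sets). At P41 6 of 6 were lower than in early catagen, against 17.9% of all probe sets. The P41 sums were 56500 to 69100, of which Krt71 alone gave 24041.3, 23753.2 and 27640.1. Natural early anagen summed to 17800 to 46100 and telogen to 884 to 2780. Ptgds at P41 lay below its own values in both of these groups. The part of these markers was not tested.

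Ptgis, the prostacyclin synthase, stood highest in telogen, at 544.5, 437.1 and 449.9. Only the first P25 array (451.3) reached that range among the other 30 arrays. Mid catagen gave 246.1, 138.4 and 128.5, and telogen was higher by 1.54 ± 0.27 (2.90-fold, adjusted p = 0.0287), a call lost in 5 of 6 fits without an array (adjusted p 0.0772 to 0.11). Late anagen at P29 gave 61.7, 29.4 and 55.6, with an array under the floor. D3 was at 166.4 and 152.4, lower than telogen by -1.58 ± 0.58 (adjusted p = 0.0409), also lost without any of the 5 arrays (adjusted p 0.0645 to 0.143), and after D3 the gene stayed between 80.7 and 177.3. D3 against natural early anagen gave -0.26 ± 0.55 (adjusted p = 0.736). Macrophage markers, like Ptgis, had their highest natural sums in telogen, but so did other lists. Endothelium summed to 3950 to 4900 in telogen, 2640 to 3620 in early anagen and 2590 and 4190 at D3. Epidermis and follicle epithelium summed to 154000 to 186000, 117000 to 128000, and 169000 and 171000. At D3 5 of 6 macrophage markers were lower than in telogen (against 19.7% of all probe sets), with sums of 10200 and 28200 against 39100 to 63100. In natural early anagen 4 of 6 were lower than in telogen, against 13.2% of all probe sets. The part of these lists was not tested.

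Hpgd, which inactivates prostaglandins, and Ptgfr, the receptor of prostaglandin F2 alpha, were both low at P29 and in early catagen and both low after depilation. Their promoter windows (GRCm38.p6, 250 bases before and 30 after the RefSeq start), at chr8:56294302-56294581 on the plus strand for Hpgd and chr3:151837499-151837778 on the minus strand for Ptgfr, are shown since the pair moved together, with the match to TATAAA in capitals.
Hpgd: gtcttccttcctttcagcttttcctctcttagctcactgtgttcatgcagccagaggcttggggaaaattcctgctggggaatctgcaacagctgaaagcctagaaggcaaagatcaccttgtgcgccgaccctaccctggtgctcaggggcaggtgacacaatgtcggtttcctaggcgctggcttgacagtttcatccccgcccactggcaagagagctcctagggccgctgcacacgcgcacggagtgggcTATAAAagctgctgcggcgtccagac
Ptgfr: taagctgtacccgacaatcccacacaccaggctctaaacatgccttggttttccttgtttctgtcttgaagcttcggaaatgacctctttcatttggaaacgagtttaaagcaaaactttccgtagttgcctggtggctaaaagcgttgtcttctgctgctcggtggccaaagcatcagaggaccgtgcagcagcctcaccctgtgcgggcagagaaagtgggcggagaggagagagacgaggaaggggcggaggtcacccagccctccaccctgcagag
Hpgd matched TATAAA 5 to 10 bases after the start, letters that 13.1% of all windows hold on either strand. Neither window held the E-box or the CRE core. The full cyclic AMP response element (TGACGTCA, in 1.74% of all windows), the AP-1 site (TGANTCA, in 7.46%) and the CCAAT box (CCAAT, in 36.1%) were absent from all 3 printed windows. This says only that these letters are not there.

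Hpgd gave 2337.6, 2755.1, 2651.5 and 3318.8 in early anagen, 1302.6, 994.5 and 1097.9 at P29 and 871.2 to 1863.3 (median 1280) in early catagen. Mid catagen gave 1392.0, 3339.8 and 3376.8, higher than early catagen by 1.02 ± 0.33 (adjusted p = 0.0378), with the first P41 array inside the early catagen range. That call was lost in 6 of 9 fits without an array (adjusted p 0.0519 to 0.152). The 10 depilated arrays ran from 745.6 (D17) to 1221.7 (D3), under all natural arrays of early anagen, and of telogen (1906.8 to 2208.6). D3 (895.3 and 1221.7) was lower than natural early anagen by -1.39 ± 0.32 (2.62-fold, adjusted p = 0.00137), which held without any array, and lower than telogen by -0.97 ± 0.34 (adjusted p = 0.0314). The telogen comparison lost its call without the first D3 array (adjusted p = 0.256), the first telogen array (adjusted p = 0.0591) or the second (adjusted p = 0.075). From D5 on, no comparison with the matching natural phase passed the test, with differences of -0.62 ± 0.34 at D5, -0.43 ± 0.28 at D8 and D12 and -0.72 ± 0.30 at D17.

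Ptgfr gave 423.6, 407.7, 456.5 and 406.9 in early anagen and 198.3, 117.7 and 158.2 at P29, with 104.1 to 183.9 (median 153) in early catagen. Mid catagen gave 241.0, 282.6 and 274.6, above all of early catagen (0.90 ± 0.18, adjusted p = 0.00527), and telogen 338.7, 350.7 and 391.2. After depilation the gene was at 108.1 and 180.8 at D3, 93.0 and 157.8 at D5, 118.8 and 87.1 at D8, 86.0 and 87.0 at D12 and 63.7 and 60.9 at D17. Both D17 arrays lay under all natural arrays. Ptgfr passed the test in all 5 comparisons of depilated with natural skin, while Hpgd and Ptgds had differences below 0 in all 5 of which 2 each passed. The log2 differences were -1.36 ± 0.29 at D3 against telogen (adjusted p = 0.00103), -1.60 ± 0.27 against early anagen (adjusted p = 6.98e-05), -1.34 ± 0.29 at D5 against P27 (adjusted p = 0.00201), -0.72 ± 0.24 at D8 and D12 against P29 (adjusted p = 0.0291) and -1.19 ± 0.26 at D17 against early catagen (adjusted p = 0.00283).

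For Ptgfr the early anagen and D17 calls held without any array. The telogen call was lost without the first D3 array (adjusted p = 0.0517), the D5 call without the first D5 array (adjusted p = 0.0875) and the D8 and D12 call without replicate 1 or 3 of P29, the second D8 or either D12 array (adjusted p 0.0576 to 0.154). The D8 and D12 call was also lost with the floor at the median (adjusted p = 0.22), quantile normalization (0.101), median centring (0.109) and the replicate block (0.0537), and the D17 call with the floor at the median (adjusted p = 0.509). Of the other probe sets of the gene 3 were tested, and all 3 were lower at D3 against telogen (-1.01 to -1.49) and against early anagen (-0.85 to -1.65), and 1 of the 3 was lower at D5 (-1.17 ± 0.33, adjusted p = 0.0127) and 1 at D17 (-1.57 ± 0.32, adjusted p = 0.00193), with none at D8 and D12. At D3 19.7% of all probe sets were called lower than in telogen and 26.1% lower than in early anagen. Of the dermal fibroblast markers 6 of 6 were lower than in telogen and 6 of 6 lower than in early anagen. Their D3 sums were 49800 and 66000 against 137000 to 210000 and 128000 to 163000. Later depilated arrays summed to 60100 to 81000. Mast cell markers also moved, with 4 of 5 lower at D3 than in telogen and 5 of 5 lower than in early anagen, and sums of 994 to 2420 against 4930 to 5020 and 5790 to 8510. Of 6 dermal papilla markers 4 were lower than in early anagen (sums of 929 to 1190 against 3760 to 6480). Only 1 was lower than in telogen (1220 to 1650), near the share of all probe sets. The part of these markers was not tested.

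**Figure D2:**
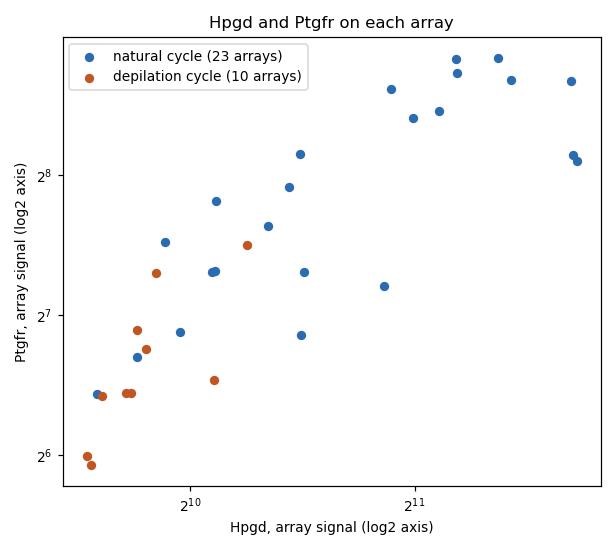
Signal of Hpgd against that of Ptgfr on each array (both axes log2), blue for the 23 natural and orange for the 10 depilated arrays. The depilated arrays lie between 745.6 and 1221.7 for Hpgd and 60.9 and 180.8 for Ptgfr, at the low end of the natural arrays or below it.

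On the log2 scale Hpgd and Ptgfr correlated at r = 0.80 (rho = 0.75) over the 23 natural arrays and r = 0.75 (rho = 0.90) over the 10 depilated ones. Other pairs were as close within a cycle. Ptger3 and Ptgfr gave r = 0.83 (rho = 0.83) in the natural cycle, and Ptges and Ptgfr r = 0.78 (rho = 0.88) after depilation. Hpgd and Ptgfr parted in mid catagen, where the mean log2 signal minus that of telogen was 0.29 for Hpgd and -0.44 for Ptgfr. These correlations are a description, since arrays of a time point share its phase, and many other transcripts follow the phases as well.

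The EP receptors of prostaglandin E2 went in different directions. Ptger4 (EP4), like Ptgds, was high from mid anagen to early catagen and low in mid catagen, but it did not pass the test in early anagen against telogen (-0.16 ± 0.14) or at D5 against D3 (0.20 ± 0.19). It was at 1289.1 to 1728.1 in early anagen, 2438.1, 2323.9 and 2145.7 at P27 and 2091.9 to 2750.0 (median 2300) in early catagen, and at 1335.2, 1442.8 and 1241.6 in mid catagen. P27 was higher than early anagen by 0.66 ± 0.14 (adjusted p = 0.0194) and mid catagen lower than early catagen by -0.80 ± 0.11 (adjusted p = 0.000932), in both cases with no overlap. The fall held without any array. The rise was lost without the first P23, first P27 or second P27 array (adjusted p 0.0525 to 0.0755). After depilation it was at 1478.6 and 1581.9 at D3, 1497.5 and 2055.7 at D5, 2463.4 and 2419.9 at D8, 3037.3 and 2968.9 at D12 and 3443.9 and 2938.7 at D17. The D12 and D17 arrays lay above all natural arrays, and D17 was higher than early catagen by 0.45 ± 0.13 (adjusted p = 0.0221). That call rests on the main probe set and on both D17 arrays. Without the first or second D17 array the adjusted p was 0.293 or 0.0533, and the second probe set gave -0.41 ± 0.22. The second probe set was lower at D5 than at P27 (-0.98 ± 0.24, adjusted p = 0.00597), where the main set gave -0.39 ± 0.15 (adjusted p = 0.0553).

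Ptger3 (EP3) was low where Ptger4 was high in the natural cycle. It gave 1002.2, 701.6, 1089.6 and 760.0 in early anagen, 446.9, 471.9 and 604.7 at P27 and 315.6 to 461.4 (median 394) in early catagen. P27 was lower than early anagen by -0.80 ± 0.20 (adjusted p = 0.0315), lost without the first P23, first P25 or first or second P27 array (adjusted p 0.0512 to 0.113). Mid catagen (451.0, 960.9 and 726.5) was higher than early catagen by 0.79 ± 0.22 (adjusted p = 0.0213), with the first P41 array inside the early catagen range, and was lost without either of the others (adjusted p = 0.0964 and 0.0755). Telogen stood at 926.6, 942.9 and 978.0. D3 (605.7 and 491.4) was lower than telogen by -0.80 ± 0.25 (adjusted p = 0.0179) and than early anagen by -0.68 ± 0.24 (adjusted p = 0.0241). Without the second D3 array the adjusted p values were 0.139 and 0.188, and without the first P23 or first P25 array the second was 0.0865 or 0.083. The early anagen call was also lost with sex as a covariate (adjusted p = 0.052) and quantile normalization (adjusted p = 0.0785).

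D5 was the high point of Ptger3 after depilation, at 865.7 and 852.4. It was above P27 by 0.77 ± 0.25 (adjusted p = 0.0292), lost without any single array apart from P27 replicate 3 (adjusted p 0.0793 to 0.155). D8 (439.5 and 439.9) and D12 (356.0 and 428.8) were lower than D5 by -1.05 ± 0.15 (adjusted p = 0.042), lost without any array but the second D5 array (adjusted p 0.0893 to 0.174). D17 gave 438.6 and 372.3. Ptger2 (EP2) was dim throughout, from 21.3 at P27 to 146.4 at P41, with D3 at 105.1 and 135.3, and 2 of the 33 arrays lay above the array median. It was tested only with no filter on dim probe sets. D3 was then higher than natural early anagen by 0.82 ± 0.28 (adjusted p = 0.0329), and the difference from telogen was 0.36 ± 0.30 (adjusted p = 0.461).

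The steps of the natural cycle in which members were called were those in which many probe sets were. Early anagen against telogen called 2 of the 8 tested genes (Ptgds higher, Ptgs2 lower) against 26.8% of all probe sets (13.5% higher, 13.2% lower), and mid against early anagen called 3 (Ptgds and Ptger4 higher, Ptger3 lower) against 19.7% (10.4% higher, 9.27% lower). Mid against early catagen called 5 (Hpgd, Ptger3 and Ptgfr higher, Ptgds and Ptger4 lower) against 35.3% (17.4% higher, 17.9% lower), and telogen against mid catagen 1 (Ptgis higher) against 5.88% (2% higher, 3.88% lower). Late against mid anagen and early catagen against late anagen called 0 members and 0% of all probe sets by limma. At an unadjusted p under 0.05 these steps had 5323 and 3596 of the 26988 probe sets, and the joint fit of all arrays called Ptgfr in the first of them (-0.99, adjusted p = 0.0384). With the P29 to early anagen difference taken from that joint fit, Ptgis (by a bound of -1.95, since a P29 array lay under the floor), Hpgd (-1.29 ± 0.28), Ptger3 (-1.02 ± 0.21) and Ptgfr (-1.45 ± 0.24) were lower and Ptgds and Ptger4 (0.62 ± 0.12) higher in late than in early anagen, all at adjusted p under the threshold.

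Depilated skin was set against telogen and against the matching natural phases. Ptgs2 is among the 8 tested genes only through the depilated arrays in which it was high, so its calls in these counts are not independent of the filter. Its values with no filter are given above. D3 against telogen called 6 of the 8 (Ptgs2 higher, Ptgds, Ptgis, Hpgd, Ptger3 and Ptgfr lower) against 33.1% of all probe sets (13.4% higher, 19.7% lower). With each array centred on its median 2 remained called, Ptgs2 and Ptgfr, and Ptgds, Ptgis, Hpgd and Ptger3 were at adjusted p 0.0554 to 0.0813. With sex as a covariate Ptgds (adjusted p = 0.0907) and Hpgd (adjusted p = 0.0979) lost the call. D3 against natural early anagen called 5 (the same without Ptgis) against 44.6% (18.5% higher, 26.1% lower). D5 against P27 called 3 (Ptges and Ptger3 higher, Ptgfr lower) against 23.6% (9.18% higher, 14.5% lower), D8 and D12 against P29 2 (Ptgs2 higher, Ptgfr lower) against 26.5% (10.6% higher, 15.9% lower), and D17 against early catagen 3 (Ptgs2 and Ptger4 higher, Ptgfr lower) against 15.3% (5.5% higher, 9.82% lower). These comparisons differ in their numbers of arrays, D3 is shared by the first 2, and whether the differences shrank with time was not tested. Within the depilation cycle D5 against D3 called 2 (Ptgds higher, Ptgs2 lower) against 2.66% (1.95% higher, 0.715% lower) and D8 and D12 against D5 1 (Ptger3 lower) against 0.545% (0.43% higher, 0.115% lower). D17 against D8 and D12 called 0 members and 0% of probe sets, with 948 probe sets at an unadjusted p under 0.05. The difference between the cycles in the change from early to late anagen was called for 2 genes, Ptgs2 and Ptgds, against 18.2% (10.6% higher, 7.66% lower).

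**Figure D3:**
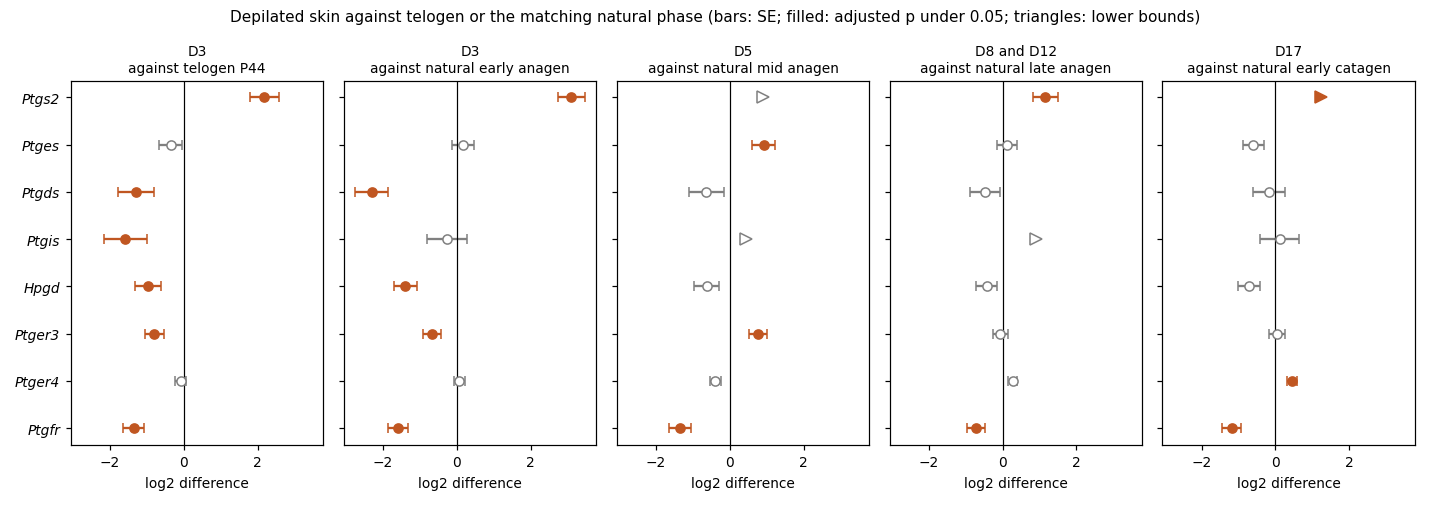
Log2 difference of depilated skin from telogen or from the matching natural phase for the 8 tested genes (x axis, points with SE bars, filled where the adjusted p was under 0.05, triangles for lower bounds where a natural array lay under the floor). Ptgfr lies left of 0 and filled in all 5 panels, from -1.60 to -0.72, and Ptgs2 right of 0, up to 3.10 at D3.

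**Figure D4:**
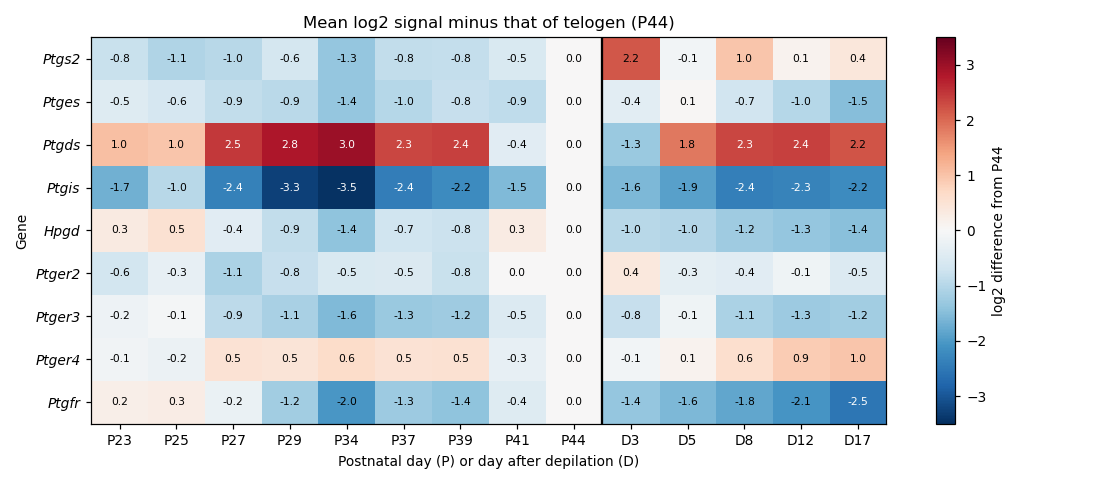
Mean log2 signal of each gene (rows) at each time point (columns) minus its mean at P44, red above and blue below telogen, with signals under the floor set to it. Ptgds reads 2.99 at P34 and -1.30 at D3, Ptgs2 2.18 at D3, and Ptgfr falls from 0.26 at P25 to -2.53 at D17.

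The other genes of the prostanoid pathway came from a list of 26, of which 23 had a probe set and 20 were tested. The list holds phospholipases that release arachidonic acid, the remaining synthases, reductases, transporters and receptors. 15 of the 20 changed across the natural cycle (against 72.6% of all probe sets) and 4 after depilation (Pla2g2e, Slco2a1, Abcc4 and Prxl2b, against 10.2%). In early anagen against telogen 7 were called (against 26.8%), 1 higher and 6 lower, led by the phospholipase Pla2g2f (-0.80 ± 0.12), the prostaglandin exporter Abcc4 (-1.02 ± 0.16) and the thromboxane synthase Tbxas1 (-1.14 ± 0.24). In mid against early anagen 6 were called (against 19.7%), 1 higher and 5 lower, led by Ptgfrn (-0.94 ± 0.13), Abcc4 (-0.94 ± 0.14) and Pla2g5 (-0.96 ± 0.20). In mid against early catagen 4 were higher and 2 lower (against 35.3% called), led by the secreted phospholipase Pla2g2e (-2.44 ± 0.12, from 3490 ± 327, n = 6, to 644 ± 65.3, n = 3), the prostaglandin F synthase Prxl2b (1.04 ± 0.18) and Pla2g10 (-1.19 ± 0.24). In telogen against mid catagen Hpgds, the hematopoietic prostaglandin D synthase (0.84 ± 0.16), and Tbxas1 (1.13 ± 0.19) were higher (against 5.88% called). Hpgds, the other gene that makes prostaglandin D2, was lower in early anagen than in telogen (-0.93 ± 0.21), where Ptgds was higher; it was singled out after its values were seen.

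After depilation 3 of the 20 were called at D3 against telogen (against 33.1%), all lower: Pla2g5 (-2.05 ± 0.57), Tbxas1 (-1.44 ± 0.47) and Pla2g2e (-1.78 ± 0.60). Against early anagen 5 were called (against 44.6%), 4 higher and 1 lower, led by Pla2g2d (1.76 ± 0.38), Ptgfrn (-0.83 ± 0.20) and the cytosolic phospholipase Pla2g4a (0.42 ± 0.15). D5 against P27 called 5 (against 23.6%), 4 higher and 1 lower, led by Prxl2b (1.11 ± 0.24), Pla2g2d (1.61 ± 0.40) and the constitutive prostaglandin E synthase Ptges2 (0.55 ± 0.16). D8 and D12 against P29 called 5 (against 26.5%), all higher, led by Prxl2b (1.01 ± 0.20), Pla2g2d (1.37 ± 0.33) and Abcc4 (1.12 ± 0.30), and D17 called Prxl2b alone (0.71 ± 0.22, against 15.3%). Prxl2b was thus higher in 4 comparisons with natural phases in which Ptgfr, the receptor of prostaglandin F2 alpha, was lower. This pairing was not planned and was not tested, and the Ptgfr call at D8 and D12 was lost in 10 of 16 alternatives. No gene of the list was called in a step within the depilation cycle. The difference between the cycles in the growth-phase change was called for Ptgfrn (1.26 ± 0.27) and Pla2g6 (-0.91 ± 0.27), against 18.2%. The median log2 difference of the 20 was -0.09 at D3 against telogen, that of the 8 members -0.88, and that of all probe sets -0.075. The members and the list were chosen with earlier results of these data known, and the contrast was not tested.

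Transcripts with a course most like each gene were sought among 12851 genes by Pearson correlation over all 33 arrays, and the values are given within each cycle. Ptgds was most like Trpm1 and Mlana (r = 0.97 in the natural and 0.98 in the depilation cycle for both) and 1810073O08Rik (0.97 and 0.95), where Trpm1 and Mlana are transcripts of pigment cells. At D3 Trpm1 was at 29.8 and 9.3 and Mlana at 13.8 and 13.9, all under the floor. At P41 Trpm1 was at 3, 5.6 and 50.1 and Mlana at 86.5, 215 and 236.7. Ptgis was most like Adgre1, which encodes the macrophage antigen F4/80 (r = 0.92 and 0.65), H2-M3 (0.89 and 0.75) and Arhgap30 (0.89 and 0.61). Hpgd was most like Fkbp7 (0.90 and 0.43), the collagen cross-linking enzyme Lox (0.87 and 0.83) and Nkain4 (0.90 and 0.48). Ptgfr was most like Usp9x (0.92 and 0.51), the laminin gene Lamc1 (0.88 and 0.70) and Fndc3b (0.89 and 0.91).

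For Ptger3 the list was Klhl22 (0.91 and 0.78), Fam189b (0.89 and 0.92) and Epb41l2 (0.91 and 0.87), and for Ptger4 it was Arf6 (0.90 and 0.90), Lypla2 (0.90 and 0.97) and Cldn12 (0.90 and 0.90). Ptges gave lower values, with Plscr1 (0.73 and 0.91), Slc16a1 (0.63 and 0.89) and Plin2 (0.68 and 0.77). For Ptgs2, with Slc25a20 (0.32 and 0.93), Cmc1 (0.61 and 0.87) and Ndufb11 (0.40 and 0.81), the likeness lay mostly in the depilation cycle. Ptger2 gave Cltb (0.75 and 0.88), Sh3bgrl3 (0.76 and 0.80) and Prr13 (0.80 and 0.56). All of these describe arrays that share their phases, with 23 natural and 10 depilated arrays.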

How the data were processed

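RNA of whole dorsal skin from 33 mice was hybridized by the authors to Affymetrix arrays, 1 mouse each, and the deposited numbers, used unchanged, were intensity on a linear scale that the authors had computed with MAS5 (version not given), which sets every array to a common trimmed mean. A floor of 34.6 (the 25th percentile over all arrays) was set before taking log2, and probe sets above the array median on at least 3 arrays were tested, 26988 of 45037 (59.9%). Names came from the platform annotation, in which 34945 probe sets had 1 symbol, 932 several and 9160 none, and the probe set with the highest mean stood for a gene.

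Neighbouring natural phases were compared in a fit of their arrays, steps after depilation in a fit of those 10 arrays, and the cycles in a fit of all 33 (limma 3.58.1, R 4.3.3, Benjamini-Hochberg adjustment over all tested probe sets). P34 entered no comparison. Phases follow the series description, from which the wording of some labels (early anagen for P41, P44 and all depilated samples) departs. The number of arrays limits the precision. All 10 genes by their main probe set, the 3 other pathway genes with the smallest p of those called and the 3 most alike transcripts of each gene were named. The genes and lists were chosen with earlier results of these data known. Promoter letters came from RefSeq (GRCm38.p6), with an entry for 9 of the 10 genes and none for Ptgis, and were searched on both strands. On simulated data with 26988 probe sets, 100 were changed 4-fold and 100 2-fold, and the rest held only normal noise. The 4-fold changes were recovered in 85% for early anagen against telogen, 65% for D5 against D3 and 87% for D3 against telogen. The 2-fold changes were recovered in 41%, 11% and 54%. The real comparisons called 26.8%, 2.66% and 33.1% of probe sets, which alters the adjustment, so these shares do not give the recovery in the real data. Alternatives covered the floor, the filter, scaling, sex, the replicate number, probe set choice, joint fits, the methods' t-test and each array left out in turn.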

Additional observations from a re-analysis of the deposited data

Results flagged for a closer look

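The change of Ptgs2 from early to late anagen differed between the cycles (-1.94 on the log2 scale, depilation minus natural), and so did that of Ptgds (1.82), each by the test of the difference itself. Ptgs2 was tested because of the depilated arrays in which it was high, and with no filter its adjusted p was 0.0174, while that of Ptgds was 0.0685. In late anagen after depilation Ptger3 on the first D12 array (356) lay apart from the other 3 arrays (428.8 to 439.9), and Ptgfr on the first D8 array (118.8) lay apart from the others (86 to 87.1). 27 sets of arrays were examined for such a value, and chance alone gives about 1 in 20. On the single P34 array, which entered no comparison, Ptgds was at 4816.4 and Ptger4 at 2519.8, both above the telogen arrays (563.7 to 651 and 1574 to 1736.4).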

How the results depend on the processing

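Over 45 calls of single genes and 866 alternatives, 682 kept the call, 183 lost it, and 1 turned the direction: Ptger4 at D17 against early catagen was -0.41 on its next brightest probe set. Counts of called genes follow, with the alternatives under which they moved by over 1.5 times. With the floor at the 10th percentile, D8 and D12 against D5 called 0, D8 and D12 against P29 1 and the difference of the growth-phase changes 1. With the floor at the median, early anagen against telogen, D5 against D3 and D8 and D12 against P29 called 0 and D17 against early catagen 1. With no filter, early anagen against telogen, telogen against mid catagen, D5 against D3 and D8 and D12 against D5 called 0, mid against early anagen, the depilation F test and the difference of the changes 1, and mid against early catagen and D3 against telogen 3. With signals above the array median on all arrays, which left 5 of the 8 genes to test (without Ptgs2, Ptgis and Ptgfr), D8 and D12 against P29 called 0, D5 against D3, D17 against early catagen and the difference of the changes 1, and D3 against telogen and against early anagen 3. Quantile normalization gave 0 for D8 and D12 against D5 and 1 for D8 and D12 against P29 and for the difference of the changes. Centring each array on its median gave 5 for mid against early anagen and 2 for D3 against telogen, and it moved the median of all probe sets to as much as 0.194 (the difference of the changes; -0.175 in mid against early anagen). With 1 probe set per gene, early anagen against telogen called 4. The methods' t-test, at p under 0.01, called 0, 2, 0, 0, 3 and 2 genes over the 6 natural steps in their order, and after Benjamini-Hochberg adjustment early anagen against telogen and telogen against mid catagen 0 and mid against early anagen 1. The joint fit gave 0 when telogen was set against mid catagen, 1 for late against mid anagen, 6 for the depilation F test and 2 for D8 and D12 against D5. Sex as a covariate gave 1 for the difference of the changes, and it could not be fitted within the depilation cycle, where all mice were female. The next brightest probe sets, which left 5 genes to test (without Ptgs2, Hpgd and Ptger3, and with the only probe set of Ptgis), gave 0 for early anagen against telogen, the depilation F test, D5 against D3, D8 and D12 against D5 and the difference of the changes, 1 for mid against early anagen, D8 and D12 against P29 and D17 against early catagen, 2 for D3 against early anagen and when telogen was set against mid catagen, and 3 for D3 against telogen.

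The replicate numbers showed no general pairing: over 171 pairs of same-numbered arrays the deviations from time point means correlated at -0.26 to 0.39 (median 0). Such deviations are tied to each other within a time point, so this cannot exclude pairing in some groups. With the replicate number as a block in the joint fit, early anagen against telogen called 1, late against mid anagen 1, the depilation F test 5, D8 and D12 against D5 2 and D8 and D12 against P29 1.

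With each array left out, the natural F test called 6 to 8 genes, early anagen against telogen 0 to 2, mid against early anagen 0 to 5, late against mid anagen and early catagen against late anagen 0 to 0, mid against early catagen 3 to 5, telogen against mid catagen 0 to 2, the depilation F test 0 to 2, D5 against D3 0 to 1, D8 and D12 against D5 0 to 2 and D17 against D8 and D12 0 to 0. D3 against telogen called 2 to 4, D3 against early anagen 4 to 5, D5 against P27 1 to 3, D8 and D12 against P29 0 to 2, D17 against early catagen 1 to 3 and the difference of the changes 0 to 2. A left-out array of a pair leaves a single array, assumed to vary like the other groups. Ptgs2 and Ptger2 were dim, and 3 Ptgs2 arrays lay under the floor.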
